A study of Mus musculus with 12 samples.

Results

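The genes described here are 53 members of the machinery that separates chromosomes and divides the cell, chosen by symbol from a fixed list of kinetochore, spindle, condensin and cytokinesis genes. All 53 were found, each once, among the 55487 genes of the expression table. They were sorted by role into 9 machines. RNA-seq libraries of 3T3-L1, a mouse preadipocyte line derived from fibroblasts, were compared between a line with a control hairpin (shScram) and a line with a hairpin against Fto (shFto), the gene of an RNA demethylase. Both lines carried a lentiviral hairpin vector and had been selected with puromycin, and 2 hairpins against Fto are listed by the study without saying which one was sequenced. Both were collected as preadipocytes (Pre), during mitotic clonal expansion (MCE stage) and after differentiation (Diff), induced by IBMX, dexamethasone and insulin, with 2 libraries in each of the 6 groups. Collection days are stated for rhein-treated cells alone, which were not analysed here. Nothing says that the 2 libraries of a group came from separate cultures, so the p-values measure the spread between libraries, which may be technical.

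Confluent 3T3-L1 preadipocytes are at rest, and induction drives them back through the cell cycle in the rounds of division known as mitotic clonal expansion before they leave the cycle and fill with lipid. In mitosis, condensins fold the chromosomes, kinetochores built on Cenpa chromatin bind spindle microtubules, and the checkpoint holds the cell until all chromosomes are attached. Cdc20 and the anaphase-promoting complex then release the sister chromatids, and kinesins, the passenger complex and the central spindle lead to cytokinesis. Transcripts of these genes are made mainly in late cycle, so in bulk RNA they follow the share of dividing cells. In such RNA, fewer dividing cells and less RNA per dividing cell cannot be told apart.

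Values were TPM, the length-corrected share of a gene among all transcripts, which keeps no sequencing depth. The 53 members lay between 2.33 and 413 TPM, and all passed the filter for testing (1 TPM or more in at least 2 of 12 libraries). Fto in shFto libraries was 9.96%, 10.8% and 10.1% of its mean in shScram libraries at the 3 stages. The labels of 1 differentiated library, shScram replicate 1, conflict: the title gives shScram, which was used, and the treatment field gives Fto knockdown. Fto in that library was 73.5 TPM, beside 70.8 TPM in replicate 2 and 7.47 and 7.05 TPM in the differentiated shFto libraries. Adipocyte markers, 16 genes, summed to 1749 to 1775 TPM in differentiated shScram and 491 to 531 TPM in differentiated shFto libraries, where Lep was listed at 0 in shScram and Pck1 in shFto cells. The 12 preadipocyte and fibroblast markers summed to 11380.5 TPM or more and the 6 macrophage markers to 11.0 TPM or less in every library, with Adgre1 listed at 0 in all. A pair of libraries stood apart. Replicate 1 of the shScram preadipocytes correlated with replicate 2 at r = 0.939 across the genes tested and r = 0.717 across the members, against 0.990 to 0.993 and 0.985 to 0.998 in the other groups. In this pair 24 members differed over 1.5-fold, and none did in any other pair. The difference ran with the GC content of the transcripts (Spearman's rho = -0.80 across 53 members, which share the library). Which of the 2 shScram preadipocyte libraries departs from the rest cannot be read from these values. Counts or medians of members are therefore given with and without replicate 1, and for some comparisons without replicate 2.

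The members rose at the MCE stage in both lines and then fell, and the fall was smaller in shFto cells. In shScram cells the median member was at 25.9 TPM in preadipocytes, 38.9 TPM during MCE and 9.17 TPM once differentiated. In shFto cells it was at 19.2, 39.8 and 19.7 TPM. Summed over the 53 genes, the 2 shScram libraries held 1808 and 1664 TPM as preadipocytes, 3181 and 3081 TPM during MCE and 757 and 786 TPM after differentiation, while the shFto libraries held 1464 and 1490, 2886 and 2733, and 1479 and 1540 TPM. At the differentiation stage both shFto sums thus stood above both shScram sums, and at the other stages below.

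**Figure D1:**
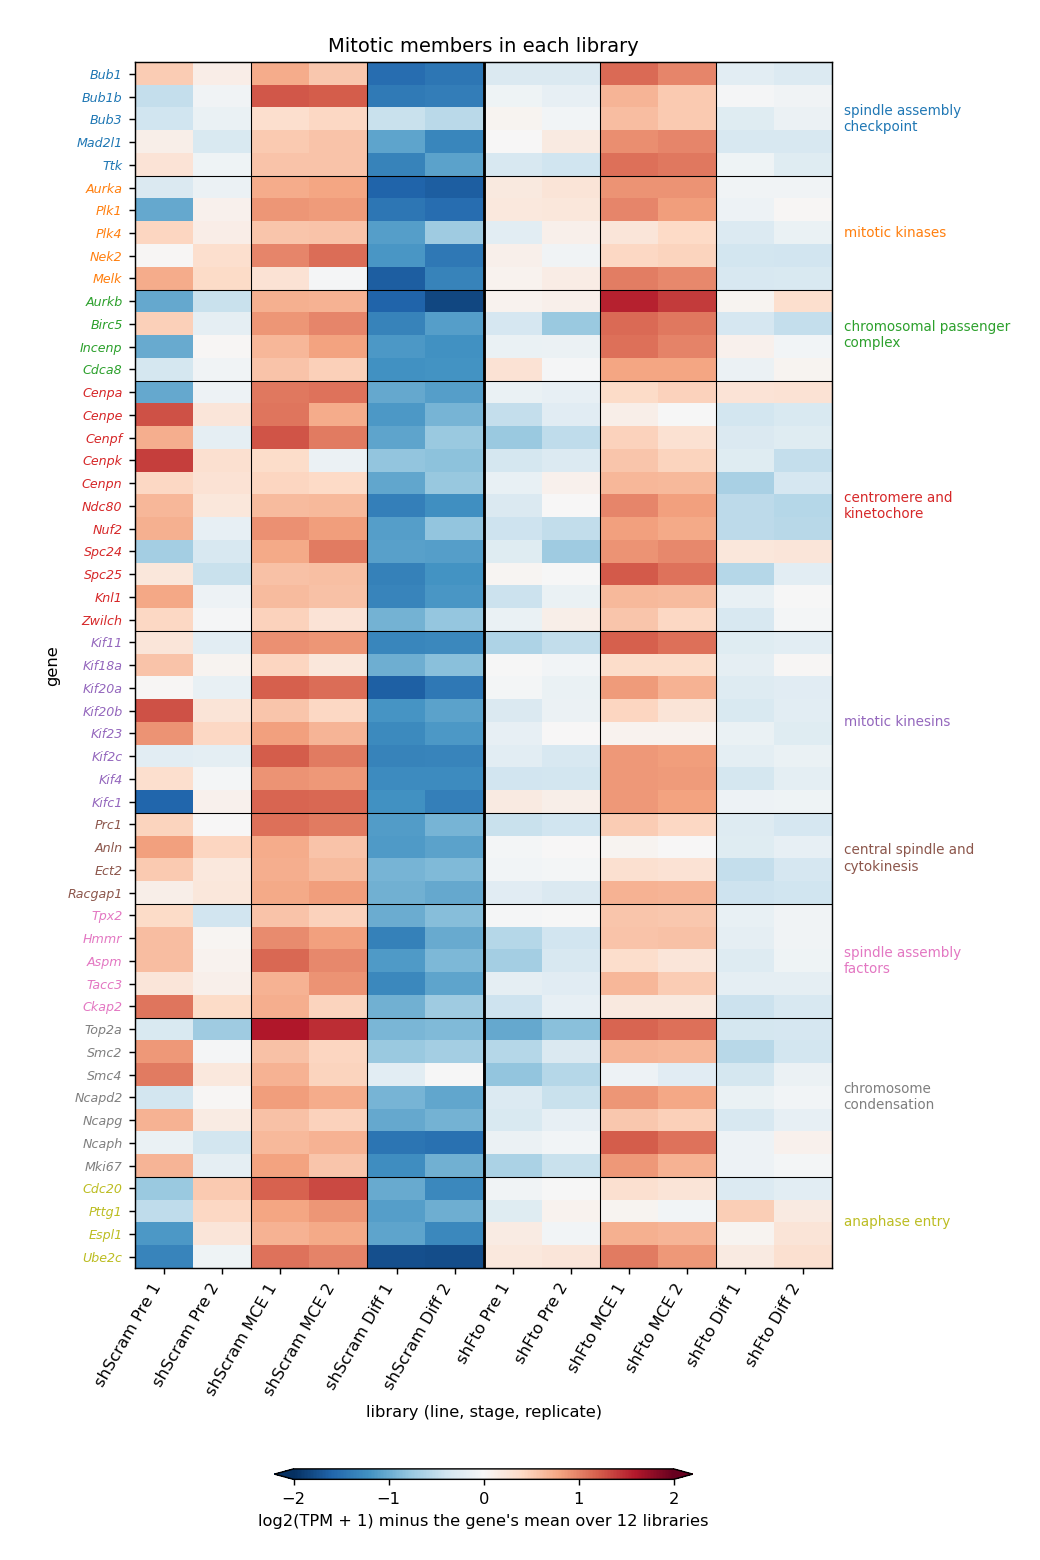
Each row is a member, ordered by machine, and each column a library; the colour is log2(TPM + 1) minus the gene's mean over the 12 libraries. The shScram differentiation libraries are the lowest columns for nearly every gene, and the column of shScram preadipocyte replicate 1 departs from that of replicate 2.

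From preadipocytes to the MCE stage, 31 of 53 members were called higher in shScram cells and 33 in shFto cells, and none was called lower (limma on log2(TPM + 1), Benjamini-Hochberg adjusted p under 0.05; at an unadjusted p under 0.05, 2 were lower in shScram and 0 in shFto cells). Of all 15968 genes tested, 12.2% and 8.80% were called higher in these comparisons. The median log2 fold change of the members was 0.64 in shScram and 0.79 in shFto cells, where that of all genes was -0.17 and -0.18. Top2a, the topoisomerase that untangles DNA, had the highest value in both lines, with a log2 fold change of 2.05 (adjusted p = 1.68e-05) and 2.07 (adjusted p = 1.8e-05). It rose from 109.8 and 82.2 to 413 and 379.7 TPM in shScram cells, and from 66.3 and 75.2 to 305 and 293 TPM in shFto libraries. Kif11, the kinesin that pushes the spindle poles apart, rose by 1.70 in shFto cells (adjusted p = 7.43e-05). Without replicate 1 of the shScram preadipocytes, 43 members were called higher in shScram and 49 in shFto cells, next to 12.9% and 15.8% of all genes. Without replicate 2 of that group the median log2 fold change of the members in shScram cells was 0.43, against -0.08 for all genes. Without replicate 2 of shScram at the MCE stage these were 0.64 and -0.14. In the fit without replicate 2 of the shScram preadipocytes, some members were called lower in shScram cells. The number of calls moved with the library left out.

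From the MCE to the differentiation stage, 51 of 53 members were called lower in shScram cells and 35 in shFto cells. Of all genes tested, 5.22% and 6.48% were called lower. The fitted change was below 0 for 53 members in shScram and 52 in shFto cells. No member was called higher in either line by limma, nor at an unadjusted p under 0.05, and the 35 had all fallen in shScram cells too. The median log2 fold change of the members was -1.91 in shScram and -0.80 in shFto cells, against 0.23 and 0.17 for all genes. As a share of the MCE mean, the median member kept 23.9% in shScram cells (13.9% to 61.7%) and 55.6% in shFto cells (32.9% to 128%). This share was larger in shFto cells for 53 of 53 members, and it was under 50% for 51 members in shScram and for 19 in shFto cells. Called genes among all tested were 79.3% higher in shScram and 75.7% higher in shFto cells here, and 53.4% and 57.2% under median-ratio scaling. With that scaling 53 members were called lower in shScram and 39 in shFto cells, beside 10.5% and 11.9% of all genes. None was called higher in either. Leaving out replicate 1 of the shScram preadipocytes, which is outside this comparison, left the medians of the members at -1.91 and -0.80. It changed the calls only through the shared estimate of spread.

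At the differentiation stage the knockdown line had more of nearly every member. Of 53 members, 41 were called higher in shFto than in shScram cells and none lower (48 and 0 at an unadjusted p under 0.05 by limma), where 11.9% of all genes tested were called higher. The median log2 fold change of the members was 0.90, and that of all genes was 0.03. Both shFto libraries stood above both shScram libraries for 52 members, a separation that 39.0% of all genes showed. The ratio of the means had a median of 2.01, ranged from 0.919 (Smc4) to 4.15 (Ube2c) and was over 2 for 27 members. The 12 members that did not pass were Bub3, Cenpe, Cenpf, Cenpk, Cenpn, Nuf2, Kif20b, Kifc1, Ckap2, Smc2, Smc4 and Cdc20. Without replicate 1 of the shScram preadipocytes, a library outside this comparison that enters through the shared estimate of spread, 50 members were called higher beside 25.3% of all genes, and Cenpk, Smc2 and Smc4 were not. Leaving out a library of the comparison gave fewer calls. The median of the members was then 0.94 (shFto replicate 1), 0.89 (shFto replicate 2), 0.89 (shScram replicate 1) or 0.97 (shScram replicate 2). The members' fold changes ran with GC content (rho = 0.59 across 53 members). After a correction of each library for GC content, 50 were called higher, beside 17.3% of all genes. Of the 53 members, 52 then had a positive value, and the median was 0.99. The lower adipocyte markers of the same shFto libraries (10 of 13 tested called lower, none higher) moved with this result, and their part in it was not tested.

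**Figure D2:**
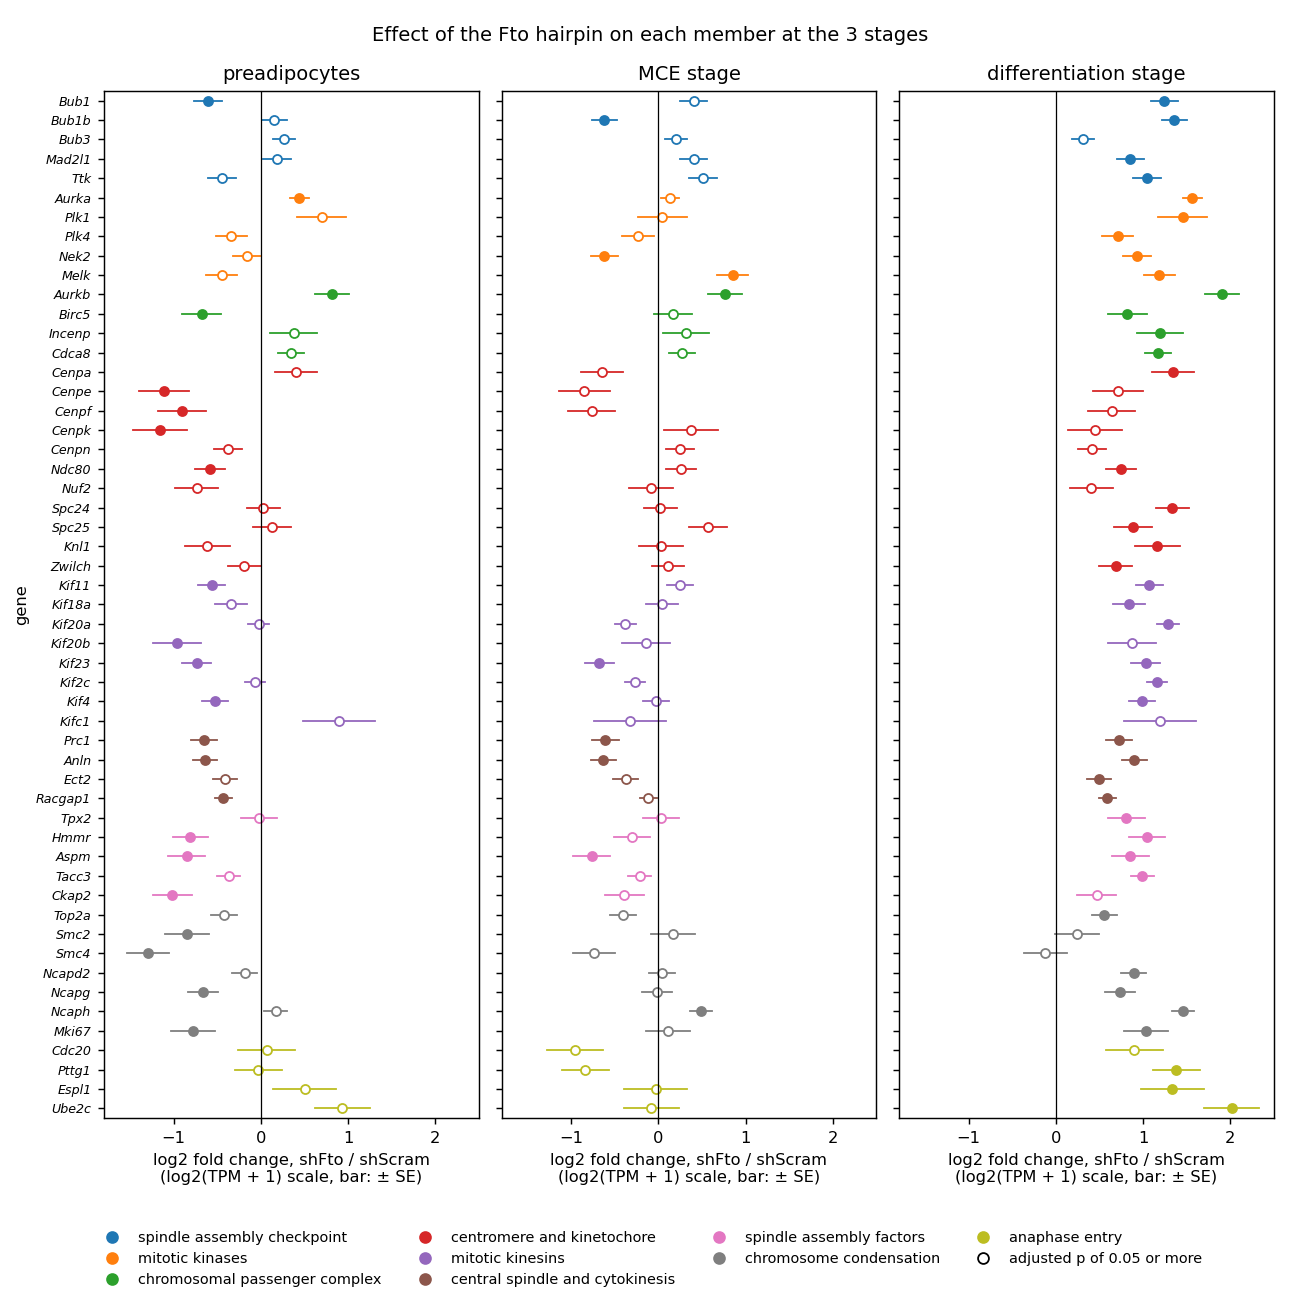
Points give the log2 fold change between shFto and shScram cells (log2(TPM + 1) scale) with its standard error for each of 53 members at the 3 stages; filled points have an adjusted p under 0.05 by limma, and colours mark the machines. Values fall on both sides of 0 in preadipocytes and at the MCE stage, and 52 of 53 lie above 0 at the differentiation stage.

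Because the members moved together, the DNA at their start sites was read. RefSeq promoter windows of 250 bases before to 50 bases after the gene start (GRCm38.p6) were found for 46 of the 53 members and for 27025 genes in all. The CHR, an element known from promoters of mitotic genes, was searched as TTTGAA or TTCGAA on both strands (the latter is its own reverse complement), the CCAAT box as CCAAT on both strands, and an E2F element as GGCGGGA on both strands. In the bases before the start, 16 of 46 members (34.8%) held a CHR against 19.6% of all genes, 32 (69.6%) a CCAAT box against 37.5%, and 9 (19.6%) the E2F letters against 11.0%. In the whole window, a choice made after the data were seen, 34 members (73.9%) held a CHR against 21.7% of all genes. In a narrower window, from 50 bases before to 50 after the start and likewise not planned, the shares were 65.2% and 6.12%. A CHR and a CCAAT box stood together in the window of 29 members (63.0%) and of 8.61% of all genes. These matches are descriptions of letters and were not tested as sites of binding.

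One CHR near the start is printed for a member of 8 of the 9 machines, on the gene's strand with its letters in capitals and 10 bases on each side (TTCAAA is TTTGAA read on the other strand):
Bub1 (chr2:127831830-127831855, minus strand): gcgcggggaaTTCGAAtcgccggcgg
Aurka (chr2:172370523-172370548, minus strand): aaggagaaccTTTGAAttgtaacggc
Cenpa (chr5:30666892-30666917, plus strand): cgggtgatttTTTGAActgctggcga
Kifc1 (chr17:33890617-33890642, minus strand): gaggttgaaaTTCAAAagtggcgggt
Anln (chr9:22389170-22389195, minus strand): ggcgctgaaaTTCAAAttttgaacgg
Hmmr (chr11:40733414-40733439, minus strand): ttgaggtaaaTTTGAAttcaggcgag
Ncapg (chr5:45669885-45669910, plus strand): gcgatagttgTTTGAAaactctggcg
Ube2c (chr2:164769890-164769915, plus strand): agggttgcaaTTCAAAcgcgggcggc
The capitals begin between 30 bases before and 33 bases after the gene start in these 8 genes. The 120 bases before the start hold both elements in 10 members, 3 of them genes of anaphase entry (Ube2c, Espl1 and Cdc20). The stretches of the 2 with the highest log2 fold changes at the differentiation stage are printed, with the CHR and the CCAAT box (ATTGG on this strand) in capitals:
Ube2c (chr2:164769809-164769928, plus strand): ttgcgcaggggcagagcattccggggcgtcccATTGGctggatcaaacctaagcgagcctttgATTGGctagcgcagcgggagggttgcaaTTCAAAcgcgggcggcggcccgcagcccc
Espl1 (chr15:102296173-102296292, plus strand): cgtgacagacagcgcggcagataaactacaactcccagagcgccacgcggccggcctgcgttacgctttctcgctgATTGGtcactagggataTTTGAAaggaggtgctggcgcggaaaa
In both genes an ATTGG stands to the left of the CHR, and the stretch of Ube2c holds it in 2 copies.

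**Figure D3:**
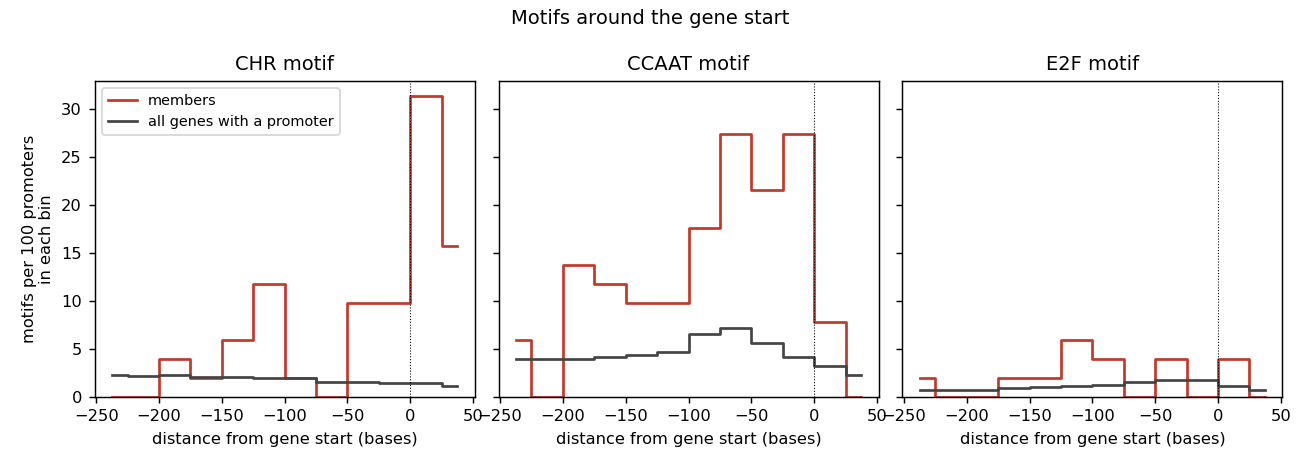
Motifs per 100 promoter windows in bins of 25 bases, against the distance from the gene start, for 51 windows of 46 members (red) and the 32851 windows of all genes (grey). The CHR of the members peaks in the 25 bases after the start, at 31.4 per 100 windows against 1.44 over all windows, and CCAAT before the start.

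The spindle assembly checkpoint delays anaphase until every kinetochore is attached. Of its 5 genes, 4 were higher in shFto cells at the differentiation stage and 5 without replicate 1 of the shScram preadipocytes, with a median log2 fold change of 1.04. Bub1b, a checkpoint kinase-like protein that blocks Cdc20 (chromosome 2, 118598211 to 118641591, plus strand), held in its shScram libraries 28.6 and 38.0 TPM as preadipocytes, 96.1 and 93.7 TPM during MCE and 14.3 and 14.7 TPM once differentiated. For Bub1b the shFto libraries held 37.7 and 35.7, 64.8 and 58.1, and 39.4 and 38.1 TPM in the same order of stages. The 2 shScram libraries were the highest of the MCE stage and the lowest of the differentiation stage, with no overlap, and the log2 fold change was -0.62, SE 0.14, adjusted p = 0.0171 at the MCE stage and 1.36, SE 0.14, adjusted p = 0.000259 at the differentiation stage. Bub1, a kinase that recruits checkpoint proteins to kinetochores (chromosome 2, 127801122 to 127831865, minus strand), held in its shScram libraries 26.9 and 20.3 TPM as preadipocytes, 31.8 and 27.4 TPM during MCE and 5.77 and 6.21 TPM once differentiated. For Bub1 the shFto libraries held 15.0 and 15.0, 41.8 and 37.3, and 16.0 and 15.1 TPM in the same order of stages. Bub1 was lower in shFto preadipocytes (log2 fold change -0.61, -0.41 without replicate 1 of shScram, and -0.22 and not called after GC correction) and higher in differentiated shFto cells (1.24, SE 0.16, adjusted p = 0.000683). Bub3, the protein that carries Bub1 and Bub1b to the kinetochore (chromosome 7, 131560222 to 131571895, plus strand), held in its shScram libraries 58.6 and 70.4 TPM as preadipocytes, 97.5 and 103 TPM during MCE and 56.9 and 52.7 TPM once differentiated. For Bub3 the shFto libraries held 80.2 and 74.2, 119.8 and 111, and 65.1 and 71.6 TPM in the same order of stages. It varied least of the 5, and its log2 fold change of 0.31, SE 0.13, adjusted p = 0.117 did not pass at the differentiation stage. Mad2l1 (0.85), which inhibits Cdc20, and the kinase Ttk (1.04) were called higher there.

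The mitotic kinases were all 5 called higher in shFto cells at the differentiation stage, with a median log2 fold change of 1.18, and all 5 had fallen in shScram cells after the MCE stage. Aurka, the Aurora kinase of the spindle poles (chromosome 2, 172356190 to 172370535, minus strand), held in its shScram libraries 28.5 and 32.1 TPM as preadipocytes, 59.6 and 61.6 TPM during MCE and 10.8 and 10.5 TPM once differentiated. For Aurka the shFto libraries held 40.5 and 42.3, 66.5 and 66.4, and 33.4 and 33.5 TPM in the same order of stages. Its 2 shFto libraries of the differentiation stage lay within 0.1 TPM of each other and above both shScram libraries, for a log2 fold change of 1.56, SE 0.11, adjusted p = 2.48e-05. Aurka was also 1 of 2 members called higher in shFto preadipocytes (0.44). Plk4, the kinase that starts centriole duplication (chromosome 3, 40800019 to 40816883, plus strand), held in its shScram libraries 18.4 and 14.9 TPM as preadipocytes, 20.2 and 20.5 TPM during MCE and 5.75 and 7.83 TPM once differentiated. For Plk4 the shFto libraries held 11.5 and 14.5, 16.1 and 18.2, and 11.0 and 12.2 TPM in the same order of stages. It had the smallest change of the 5 (0.71, SE 0.18, adjusted p = 0.0246), though without overlap. Plk1 (1.45), a master kinase of mitotic entry and exit, Melk (1.18) and the centrosome kinase Nek2 (0.93) lay between these values. At the MCE stage Melk was higher (0.85, SE 0.18, adjusted p = 0.0106) and Nek2 lower (-0.62, SE 0.16, adjusted p = 0.0254) with the knockdown.

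The chromosomal passenger complex corrects faulty attachments and then moves to the midzone. Its 4 genes rose to the MCE stage, fell to the differentiation stage in both lines, and were all called higher in shFto cells at that last stage (median log2 fold change 1.18). Aurkb, the kinase of the complex (chromosome 11, 69045647 to 69051664, plus strand), held in its shScram libraries 13.2 and 20.1 TPM as preadipocytes, 46.1 and 45.4 TPM during MCE and 8.52 and 7.10 TPM once differentiated. For Aurkb the shFto libraries held 29.1 and 29.8, 82.7 and 74.5, and 28.8 and 35.2 TPM in the same order of stages. Aurkb was the one member called higher in shFto cells at all 3 stages, with log2 fold changes of 0.82, SE 0.19, adjusted p = 0.0171, 0.77, SE 0.19, adjusted p = 0.0253 and 1.90, SE 0.19, adjusted p = 0.000208, and its libraries did not overlap at any stage. Birc5, survivin, which targets the complex to centromeres (chromosome 11, 117849251 to 117855743, plus strand), held in its shScram libraries 70.5 and 44.3 TPM as preadipocytes, 94.0 and 100.1 TPM during MCE and 19.5 and 22.9 TPM once differentiated. For Birc5 the shFto libraries held 40.0 and 29.7, 111 and 106, and 39.9 and 36.2 TPM in the same order of stages. It was called lower in shFto preadipocytes (-0.68), where the shScram replicates were far apart and the call was lost without replicate 1 (-0.35) or after GC correction or median-ratio scaling, and higher at the differentiation stage (0.82, SE 0.22, adjusted p = 0.0276), a call lost with median-ratio scaling or without the filter. Incenp (1.19), the scaffold of the complex, and Cdca8 (1.17) were also higher.

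The kinetochore couples the centromere of a chromosome to microtubules. Of the 11 genes of this group, 6 were called higher in differentiated shFto cells, and 10 without replicate 1 of the shScram preadipocytes, with a median log2 fold change of 0.71. Cenpa, the histone H3 variant that marks centromeres (chromosome 5, 30666777 to 30674830, plus strand), held in its shScram libraries 28.8 and 55.5 TPM as preadipocytes, 124 and 127 TPM during MCE and 28.8 and 27.2 TPM once differentiated. For Cenpa the shFto libraries held 53.8 and 52.8, 78.0 and 82.2, and 71.8 and 72.7 TPM in the same order of stages. After the MCE stage Cenpa kept 22.3% of its mean in shScram and 90.3% in shFto cells, and its log2 fold change between the lines at the differentiation stage was 1.34, SE 0.24, adjusted p = 0.00462. Nuf2, a subunit of the Ndc80 complex, which grips microtubules (chromosome 1, 169497934 to 169531464, minus strand), held in its shScram libraries 25.7 and 13.5 TPM as preadipocytes, 29.7 and 28.0 TPM during MCE and 6.58 and 8.40 TPM once differentiated. For Nuf2 the shFto libraries held 11.1 and 10.5, 27.7 and 26.6, and 10.3 and 10.1 TPM in the same order of stages. Nuf2 fell to the differentiation stage in both lines and its knockdown value there was the lowest of the group (0.40, SE 0.25, adjusted p = 0.295), although the libraries did not overlap. Among the other subunits of the same complex the values were 0.74 for Ndc80, 0.89 for Spc25 and 1.33 for Spc24, all called. Knl1 (1.16), the scaffold that binds checkpoint proteins, and Zwilch (0.68), a recruiter of dynein, were called, and the motor Cenpe (0.71), Cenpf (0.64), Cenpk (0.45) and Cenpn (0.41) were not. In preadipocytes Cenpk (-1.16), Cenpe (-1.11), Cenpf (-0.90) and Ndc80 (-0.58) were called lower in shFto cells. Without replicate 1 of the shScram preadipocytes 2 of these calls were left, Cenpk (-0.63) and Cenpe (-0.60), while Cenpf (-0.45) and Ndc80 (-0.36) no longer passed. Cenpk overlaps Ppwd1 on the other strand, and the use of strand in counting is not stated.

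The mitotic kinesins move chromosomes and spindle poles along microtubules. Of 8, 6 were called higher in shFto cells at the differentiation stage (median log2 fold change 1.05), and 8 without replicate 1 of the shScram preadipocytes. Kif20a, a kinesin of the central spindle needed for cytokinesis (chromosome 18, plus strand), held in its shScram libraries 49.8 and 44.5 TPM as preadipocytes, 113 and 108 TPM during MCE and 15.2 and 17.6 TPM once differentiated. For Kif20a the shFto libraries held 47.8 and 44.7, 90.1 and 79.9, and 40.8 and 42.0 TPM in the same order of stages. It kept 14.8% of its MCE mean in shScram and 48.7% in shFto cells, and differed by 1.29, SE 0.12, adjusted p = 0.000151 between the lines at the end. Kif20a is 1 of 22 members that overlap a gene on the opposite strand (here Cdc23), and whether this touches its value was not tested. Kif18a, a kinesin that limits chromosome movement at the metaphase plate (chromosome 2, 109280738 to 109341747, plus strand), held in its shScram libraries 13.8 and 9.37 TPM as preadipocytes, 12.4 and 10.6 TPM during MCE and 4.04 and 4.55 TPM once differentiated. For Kif18a the shFto libraries held 8.86 and 8.61, 11.8 and 11.8, and 7.82 and 9.14 TPM in the same order of stages. Kif18a had the lowest value of the group (0.84, SE 0.19, adjusted p = 0.0125). The others called were Kif2c (1.16), which depolymerises microtubules, Kif11 (1.07), the midzone kinesin Kif23 (1.03) and the chromokinesin Kif4 (0.98), a gene with a pseudogene of its name. Kifc1 (1.19) and Kif20b (0.87) had values as large but wider errors, and the Kifc1 libraries of shScram preadipocytes held 10.7 and 36.4 TPM.

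**Figure D4:**
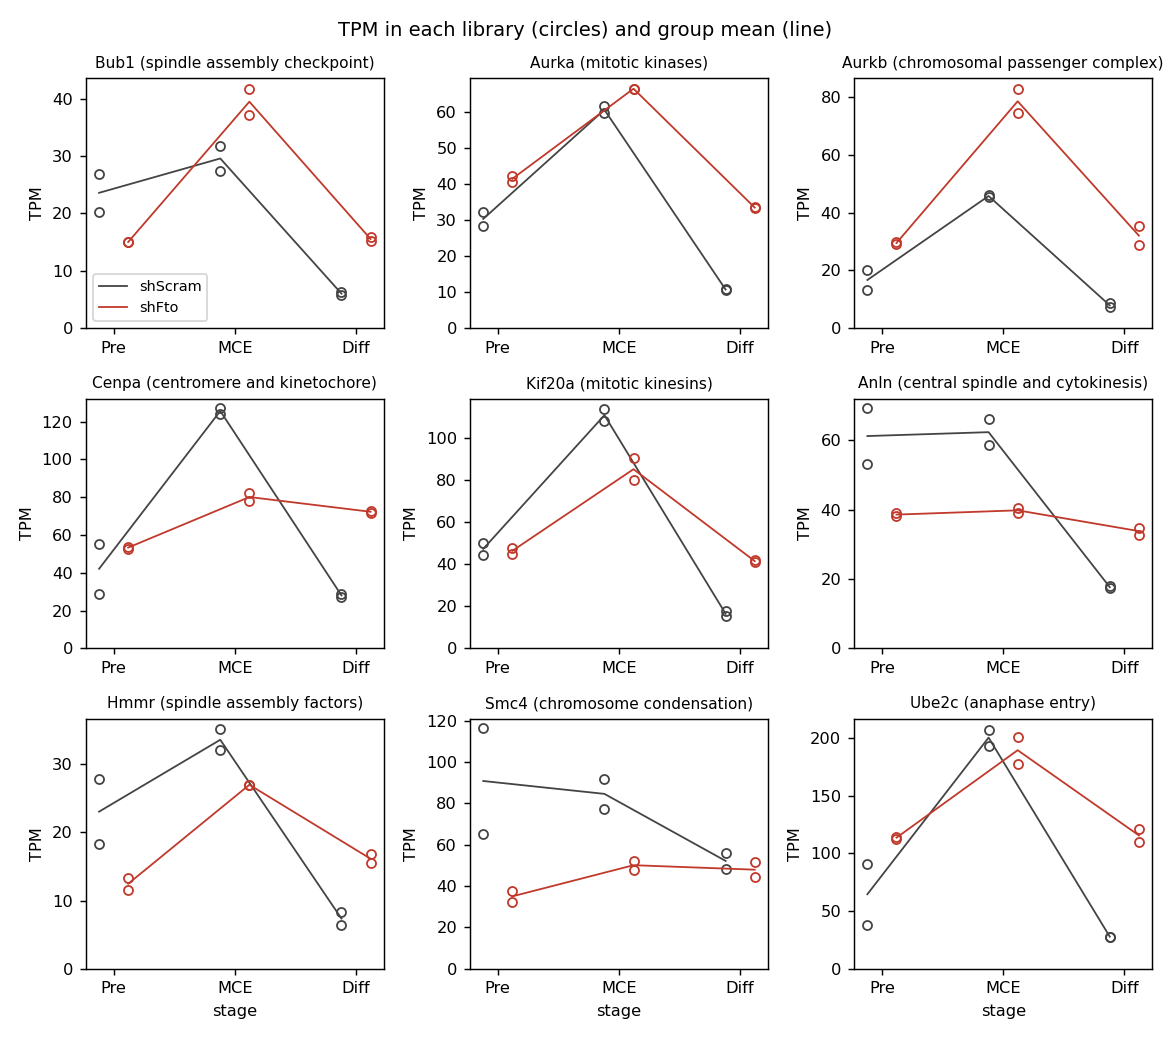
TPM of 9 members, one from each machine, in each of the 12 libraries (circles) and the group means (lines), for shScram (grey) and shFto (red) cells at the 3 stages. In 8 of the 9 genes both shFto circles of the differentiation stage lie above both shScram circles, and for Smc4 they overlap.

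Of the 4 central spindle and cytokinesis genes, 3 were called lower in shFto preadipocytes (Prc1, Anln and Racgap1) and 2 at the MCE stage (Prc1 and Anln). All 4 were called higher at the differentiation stage, with a median log2 fold change of 0.66, the smallest of the 9 machines. Anln, anillin, which ties the contractile ring to the membrane (chromosome 9, 22332012 to 22389188, minus strand), held in its shScram libraries 69.3 and 53.1 TPM as preadipocytes, 66.1 and 58.6 TPM during MCE and 17.3 and 18.0 TPM once differentiated. For Anln the shFto libraries held 38.1 and 39.1, 40.5 and 39.1, and 32.8 and 34.8 TPM in the same order of stages. The shFto libraries thus lay below both shScram libraries at the first 2 stages (log2 fold changes -0.64, SE 0.14, adjusted p = 0.0136 and -0.63, SE 0.14, adjusted p = 0.0151) and above them at the last (0.90, SE 0.14, adjusted p = 0.00227). Ect2, the exchange factor that activates RhoA at the cell equator (chromosome 3, 27097222 to 27153878, minus strand), held in its shScram libraries 22.0 and 17.4 TPM as preadipocytes, 25.3 and 23.8 TPM during MCE and 7.34 and 7.63 TPM once differentiated. For Ect2 the shFto libraries held 14.4 and 14.6, 18.8 and 18.4, and 10.4 and 11.6 TPM in the same order of stages. Its value at the differentiation stage was 0.50, SE 0.14, adjusted p = 0.0332, and the call was lost with median-ratio scaling or quantile normalization. Prc1, the protein that bundles midzone microtubules, was called lower at the MCE stage (-0.61, SE 0.15, adjusted p = 0.0252) and higher at the differentiation stage (0.72). Racgap1 (0.59), the partner of Kif23 in centralspindlin, was also called higher there.

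The spindle assembly factors build and focus microtubules. Of 5, 4 were called higher at the differentiation stage, with a median log2 fold change of 0.85, and 5 without replicate 1 of the shScram preadipocytes. Hmmr, a spindle protein that also binds hyaluronan (chromosome 11, 40701395 to 40733422, minus strand), held in its shScram libraries 27.9 and 18.2 TPM as preadipocytes, 35.2 and 32.0 TPM during MCE and 6.36 and 8.36 TPM once differentiated. For Hmmr the shFto libraries held 11.6 and 13.3, 27.0 and 27.0, and 15.5 and 16.8 TPM in the same order of stages. At the last stage it lay below both preadipocyte libraries in shScram cells and above both in shFto cells, and it differed by 1.04, SE 0.20, adjusted p = 0.00663 between the lines at the differentiation stage. Ckap2, a microtubule-associated protein (chromosome 8, 22168160 to 22185819, minus strand), held in its shScram libraries 75.7 and 46.5 TPM as preadipocytes, 59.2 and 49.0 TPM during MCE and 17.7 and 21.3 TPM once differentiated. For Ckap2 the shFto libraries held 26.5 and 31.5, 41.0 and 40.8, and 26.1 and 28.4 TPM in the same order of stages. Ckap2 had the lowest value of the group (0.47, SE 0.22, adjusted p = 0.175), which did not pass, and in preadipocytes it was called lower in shFto cells (-1.02, SE 0.22, adjusted p = 0.0127; -0.67 and still called without replicate 1 of shScram). Aspm, which focuses spindle poles, was lower with the knockdown during MCE (-0.76, SE 0.21, adjusted p = 0.0383) and higher at the differentiation stage (0.85). Tacc3 (0.99) and Tpx2 (0.81), the activator of Aurka on the spindle, were called higher at that stage.

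Among the chromosome condensation genes, 5 of 7 were called higher in shFto cells at the differentiation stage, with a median log2 fold change of 0.74. Ncaph, the kleisin subunit of condensin I (chromosome 2, 127103809 to 127133954, minus strand), held in its shScram libraries 25.0 and 21.1 TPM as preadipocytes, 43.7 and 45.0 TPM during MCE and 9.39 and 9.19 TPM once differentiated. For Ncaph the shFto libraries held 25.3 and 26.5, 65.0 and 59.8, and 25.5 and 29.1 TPM in the same order of stages. Its libraries separated at the MCE stage (0.48, SE 0.13, adjusted p = 0.0305) and at the differentiation stage (1.46, SE 0.13, adjusted p = 9.01e-05), shFto above shScram in both. Smc4, an ATPase subunit that both condensins share (chromosome 3, 69004738 to 69034623, plus strand), held in its shScram libraries 116 and 65.2 TPM as preadipocytes, 91.9 and 77.3 TPM during MCE and 48.5 and 55.9 TPM once differentiated. For Smc4 the shFto libraries held 32.3 and 37.8, 52.3 and 47.9, and 44.2 and 51.7 TPM in the same order of stages. Smc4 was the one member whose libraries overlapped at the differentiation stage, and it had the lowest value of all members in preadipocytes (-1.30, SE 0.24, adjusted p = 0.00739). Smc2, the other shared ATPase, was not called at the differentiation stage either (0.24), and Ncapd2 (0.89) and Ncapg (0.74) of condensin I were. The Smc4 locus holds Mir15b and Mir16-2 on its strand. Mki67, the antigen Ki-67, which coats mitotic chromosomes and marks cycling cells (chromosome 7, 135689784 to 135716361, minus strand), held in its shScram libraries 41.4 and 22.4 TPM as preadipocytes, 45.5 and 37.9 TPM during MCE and 10.3 and 12.7 TPM once differentiated. For Mki67 the shFto libraries held 16.2 and 18.6, 47.5 and 42.1, and 23.7 and 24.9 TPM in the same order of stages. Mki67 was lower in shFto preadipocytes (-0.78, SE 0.25, adjusted p = 0.0477), a call lost without replicate 1 of shScram (-0.35). It overlapped between the lines at the MCE stage and was higher at the differentiation stage (1.03, SE 0.25, adjusted p = 0.0197). Top2a was called higher there (0.56).

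The genes of anaphase entry had the highest median of the 9 machines between the lines at the differentiation stage (log2 fold change 1.36), with 3 of 4 called higher in shFto cells and 4 without replicate 1 of the shScram preadipocytes. In shScram cells 4 of 4 rose to the MCE stage and 4 of 4 fell after it. In shFto cells none of the 4 was called in either step by limma, and at an unadjusted p under 0.05 there was 1 in the first step and none in the second; without replicate 1 of the shScram preadipocytes 3 rose in the first step, while 3 fell and 1 rose in the second. Ube2c, the ubiquitin-conjugating enzyme of the anaphase-promoting complex (chromosome 2, 164769898 to 164778822, plus strand), held in its shScram libraries 38.1 and 91.1 TPM as preadipocytes, 207 and 193 TPM during MCE and 27.9 and 27.7 TPM once differentiated. For Ube2c the shFto libraries held 113 and 114, 201 and 178, and 109.8 and 121 TPM in the same order of stages. Its differentiated shFto libraries held about the level of shFto preadipocytes, and the log2 fold change between the lines was 2.01, SE 0.31, adjusted p = 0.00218, the highest of the 53. Ube2c overlaps Tnnc2 on the opposite strand. Cdc20, the activator of the anaphase-promoting complex (chromosome 4, 118432901 to 118437352, minus strand), held in its shScram libraries 33.6 and 82.3 TPM as preadipocytes, 129.7 and 142 TPM during MCE and 27.7 and 22.7 TPM once differentiated. For Cdc20 the shFto libraries held 54.2 and 56.1, 71.1 and 68.1, and 46.6 and 48.7 TPM in the same order of stages. The 2 lines did not overlap at the MCE or the differentiation stage, but the value at the latter did not pass (0.90, SE 0.32, adjusted p = 0.0846) and neither did that at the former (-0.96, SE 0.32, adjusted p = 0.0769). Cdc20 overlaps Elovl1 on the opposite strand. Pttg1, securin, the inhibitor of separase (chromosome 11, 43420250 to 43426251, minus strand), held in its shScram libraries 23.8 and 46.1 TPM as preadipocytes, 60.1 and 64.7 TPM during MCE and 15.4 and 17.0 TPM once differentiated. For Pttg1 the shFto libraries held 29.1 and 36.3, 35.9 and 33.0, and 49.0 and 39.2 TPM in the same order of stages. Pttg1 was the one member with a higher mean at the differentiation than at the MCE stage in shFto cells, and the lines differed by 1.38, SE 0.27, adjusted p = 0.00656 at the end. Espl1 (1.33), separase itself, was higher as well.

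At the MCE stage the members did not move one way. Called higher in shFto cells were 3 (Melk, Aurkb and Ncaph) and called lower 6 (Bub1b, Nek2, Kif23, Prc1, Anln and Aspm), beside 10.5% higher and 7.26% lower of all genes tested. The median log2 fold change was -0.03, with 25 members above 0. Both shFto libraries stood above both shScram libraries for 17 members and below them for 24. The share of all genes separated in this way was not computed at this stage. Neither count is therefore read as a trait of the members. The 6 genes lower here were all called higher at the differentiation stage. Kif23 had the lowest of the values called in its group (-0.68, SE 0.17, adjusted p = 0.0236). The fit without replicate 1 of the shScram preadipocytes called 8 higher and 18 lower, next to 25.2% and 15.8% of all genes. In that fit 3 of 4 central spindle genes and 4 of 8 kinesins were lower and none of either higher, whereas 3 of 5 checkpoint genes were higher and 1 lower, and 2 of 4 passenger genes were higher and none lower. The count of 9 calls rested on each library of the stage, since 0 were left without shFto replicate 1 or 2 and 1 without shScram replicate 1 or 2.

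In preadipocytes, 2 members were called higher in shFto cells (Aurka and Aurkb) and 20 lower, while 15.9% of all genes tested were higher and 12.3% lower. The median log2 fold change of the members was -0.38 and that of all genes 0.08. Lowest were Smc4 (-1.30), Cenpk (-1.16) and Cenpe (-1.11), and without replicate 1 of shScram these were -0.88, -0.63 and -0.60, all still called. The fold changes ran with GC content (rho = 0.70 across 53 members). When replicate 1 of shScram was left out, the median of the members was -0.30 and that of all genes 0.00. Without replicate 2 of shScram these were -0.48 and 0.15. They were -0.37 and 0.12 without shFto replicate 1, and -0.40 and 0.05 without shFto replicate 2. The number of calls moved with the library left out, and few or none were left without either shFto library. After the GC correction 4 members were called higher and 18 lower, beside 16.5% and 15.5% of all genes, with a median of -0.22. Of the 20 lower in preadipocytes, 13 were called higher at the differentiation stage.

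**Figure D5:**
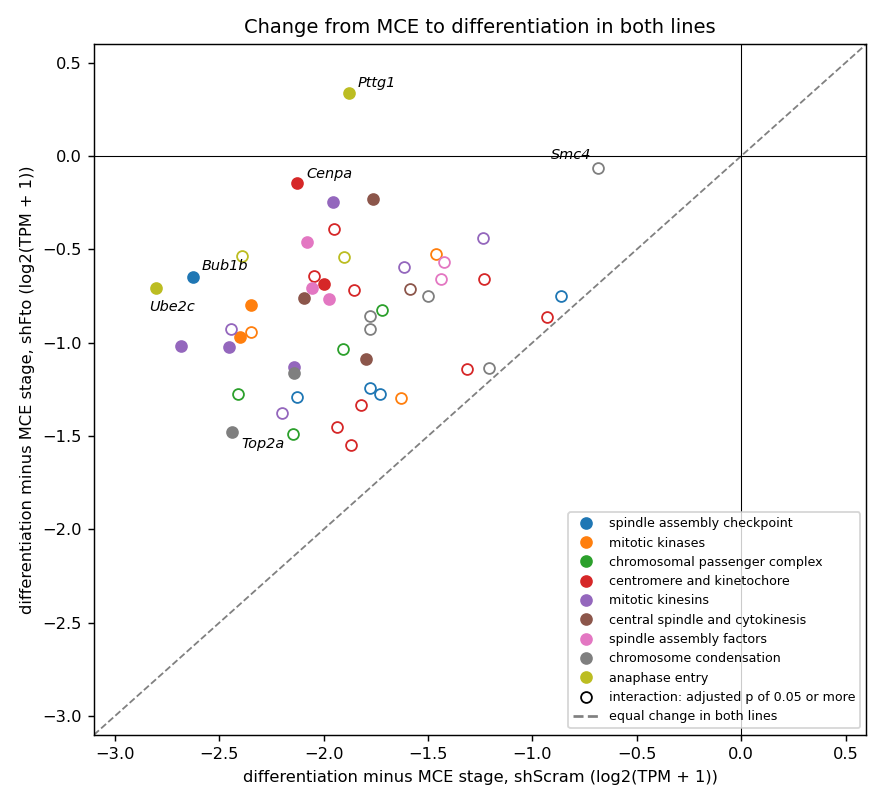
Change from the MCE to the differentiation stage on the log2(TPM + 1) scale in shScram cells (x axis) and in shFto cells (y axis) for 53 members; filled points have an adjusted p under 0.05 for the difference between the lines, and the dashed line marks equal change. All points lie above the dashed line, Pttg1 alone above 0 in shFto cells.

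The difference between the lines was itself tested across stages as an interaction. From the MCE to the differentiation stage the difference of shFto minus shScram moved upward for 19 of 53 members and downward for none (41 and 0 at an unadjusted p under 0.05 by limma), where 1.47% of all genes tested were called in the same direction. The median of the interaction was 0.96 on the log2 scale, against -0.05 for all genes, and it was positive for 53 of 53 members. Of the 19, 16 had a fitted difference below 0 at the MCE stage and above 0 at the differentiation stage, and 3 (Aurka, Spc24 and Ncaph) were above 0 at both. These values share their libraries with the comparisons above. Highest was Pttg1 (2.22, SE 0.38, adjusted p = 0.0199), followed by Ube2c (2.1), Cenpa (1.98) and Bub1b (1.98). By machine, 4 of 8 kinesins, 3 of 4 central spindle genes and 3 of 5 spindle assembly factors passed, and none of the 4 passenger genes. Leaving out either library of the shScram preadipocytes, which are outside this comparison, left the median at 0.96. It changed the calls only through the shared estimate of spread. Without any 1 of the 8 libraries of the 2 stages fewer members were called, with medians from 0.93 to 1.02. From preadipocytes to the MCE stage it moved upward for 3 members, beside 2.52% of all genes, each from a value below 0 to one above 0, namely Melk (1.30, SE 0.25, adjusted p = 0.0219), Bub1 (1.01, SE 0.22, adjusted p = 0.0348) and Ttk (0.95, SE 0.23, adjusted p = 0.049). Without replicate 1 of the shScram preadipocytes the median of this interaction was 0.11 over the members and 0.07 over all genes. Without replicate 2 of that group these were 0.36 and -0.09. Both fits called some members downward too. After the GC correction 6 members were called upward and 1 downward, beside 1652 of all genes in either direction. With median-ratio scaling there was 1 each way, beside 914 of all genes, and with quantile normalization 1 each way, beside 840. With any 1 of the other 10 libraries left out, fewer members passed.

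Other mitotic genes, 61 of 62 listed that were found (the symbol Rod1 was not), were more often called higher than lower in shFto cells at the differentiation stage, with 29 higher and 3 lower (Anapc4, Anapc7 and Numa1, named after their values were seen). Their median log2 fold change was 0.60. Of all 15968 genes tested, 1905 were called higher and 1486 lower there. After the MCE stage 41 were called lower and 1 higher in shScram cells. In shFto cells 30 were called lower and none higher. Of all genes, 5.22% and 6.48% were called lower. The interaction from the MCE to the differentiation stage was called upward for 5 and downward for none, beside 1.47% of all genes upward. It was positive for 41 of the 61, with a median of 0.30. Anapc5, a subunit of the anaphase-promoting complex, was the most abundant. It held 204 and 222 TPM in differentiated shScram and 189 and 203 TPM in differentiated shFto libraries. The shFto libraries were thus the lower, without overlap, and Anapc5 was not among the 3 called lower. Ube2s, which extends ubiquitin chains for the same complex, held 56.8 and 53.6 and 113 and 127 TPM without overlap, with an adjusted p of 0.109.

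DNA replication genes, which act in S phase, followed another course. Of 35, 16 were called higher with the knockdown during MCE and none lower (median log2 fold change 0.59), and 11 were higher and 2 lower at the differentiation stage (median 0.41). Of all genes tested, 10.5% and 11.9% were called higher at these stages. For these genes the interaction from the MCE to the differentiation stage was called upward in none and downward in 3, with a median of -0.30. At an unadjusted p under 0.05 by the same limma fit, none passed upward either. Pcna, the sliding clamp of DNA polymerases, held 180.4 and 160.0 TPM in shScram cells during MCE and 313 and 329 TPM in shFto cells, and 97.6 and 81.9 and 95.0 and 88.7 TPM at the differentiation stage. Mcm7, a subunit of the replicative helicase, held 86.7 and 89.1 and 116 and 114 TPM during MCE, and 45.7 and 44.8 and 37.8 and 38.1 TPM at the differentiation stage. For both genes the lines separated at the MCE stage with shFto above, and at the differentiation stage Pcna overlapped between the lines while the Mcm7 libraries of shFto were the lower. Of the 12 housekeeping genes, 1 was lower and none higher in shFto cells at the differentiation stage, with a median of -0.22.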

How the data were processed

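RNA-seq libraries from shScram and shFto cells at 3 stages were used, 12 in all, grouped by their titles. The study describes chemical fragmentation of the RNA in a passage on rhein-treated cells. The authors used Trim Galore 0.6.5 for trimming, HISAT2 2.1.0 for alignment to GRCm38 and StringTie 2.1.4 with Ensembl release 102 for the TPM table they deposited. Their DESeq2 1.30.1 test on counts was not repeated here. Depth cannot be read from TPM, so no interval for counting error was computed, and precision is limited by having 2 libraries in each group.

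The members, the 9 machines and the other gene lists were chosen with earlier results of these data known. Values were taken as log2(TPM + 1), on which scale fold changes of low genes are understated. Of 55487 genes, 15968 that reached 1 TPM in at least 2 libraries entered the test in limma 3.58.1 (R 4.3.3; group means, trended eBayes, 6 residual degrees of freedom, two-sided), with Benjamini-Hochberg adjustment over all of them and a threshold of 0.05. Stage differences of the knockdown effect were interaction contrasts of the same fit. The fit was tested on simulated data. Tables and figures were made in Python 3.11.15 (pandas 2.3.3, numpy 2.4.6, scipy 1.17.1, matplotlib 3.10.9). Gene positions came from GENCODE M21 on GRCm38 and promoter windows from RefSeq on GRCm38.p6; one promoter sequence is not reported here. Of the members, 22 overlap a gene on the opposite strand and 10 one on their own, and the use of strand in counting is not stated in the sources used here.

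All members are accounted for. In each machine the tested members with the highest and the lowest log2 fold change were described, with those called against the majority, those passing an interaction, Bub1 and Mki67, and of the mitotic and replication lists the 2 genes with the highest mean TPM. Values of other members are given as a record of the list. Alternatives were the pseudocount, filters, quantile or median-ratio scaling, the libraries in the fit, the eBayes options, a replicate block, the study's thresholds (fold change over 2 or under 0.5, unadjusted p) and leaving out each library. A GC correction (lowess with a span of 0.3) and the whole promoter window were added after the data were seen. The window of 50 bases on each side of the gene start was not planned either.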

Additional observations from a re-analysis of the deposited data

Results flagged for a closer look

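The effect of the knockdown differed between stages for some members, by the interaction term of the limma fit (adjusted p under 0.05, 2 libraries per group). Between preadipocytes and the MCE stage there were 3 such members, with interaction values on the log2 scale of 1.01 for Bub1, 0.95 for Ttk and 1.30 for Melk. Bub1, Ttk and Melk were lower in shFto than in shScram libraries as preadipocytes and higher at the MCE stage, without overlap at either stage.

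Between the MCE and the differentiation stage there were 19, all with a positive interaction. Among checkpoint genes and kinases these were Bub1b (1.98), Aurka (1.43) and Nek2 (1.55), and at the kinetochore Cenpa (1.98) and Spc24 (1.31). The kinesins were Kif20a (1.66), Kif23 (1.71), Kif2c (1.43) and Kif4 (1.01), and the central spindle genes Prc1 (1.33), Anln (1.53) and Racgap1 (0.71). Spindle assembly and condensation gave Hmmr (1.35), Aspm (1.62), Tacc3 (1.20), Top2a (0.96) and Ncaph (0.97). In anaphase entry the values were highest, at Pttg1 (2.22) and Ube2c (2.1). No group had the 4 libraries that a check for single outlying samples needs.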

How the results depend on the processing

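The fall of the members from the MCE to the differentiation stage in shScram cells kept its direction and was called for 49 to 53 members when each library was left out in turn and for 50 to 53 in the other settings. Counts moved by over 1.5 times elsewhere. With each library left out in turn, members called between the lines numbered 0 to 44 in preadipocytes, 0 to 27 during MCE and 23 to 51 once differentiated. Those called from preadipocytes to the MCE stage numbered 20 to 43 in shScram and 23 to 49 in shFto cells, and those from MCE to differentiation in shFto cells 24 to 50. Interactions numbered 0 to 36 up to the MCE stage and 5 to 42 after it. A lone remaining library was assumed to vary like the other groups. Under the study's thresholds 4 members passed between the lines in preadipocytes, 0 during MCE and 23 once differentiated. There were 13 in the shScram and 19 in the shFto rise, 19 in the shFto fall and 6 in the first interaction (4 upward and 2 downward). The shares of all genes passing these thresholds are not given, so these counts are not read as a trait of the members. With only the libraries of each comparison in the fit there were 0 between the lines in preadipocytes and 28 at the MCE stage. In the shScram rise there was 1, in the first interaction 0 and in the second 43. Of all 15968 genes tested, this setting called 0, 5913, 504, 239 and 2694 in the same order. In that fit Fto itself fell by 3.11 in preadipocytes without passing (adjusted p = 0.109). Without a filter on low values 14 members passed in preadipocytes, beside 3289 of all genes. The GC correction gave 23 at the MCE stage (7 higher and 16 lower), beside 15.9% of all genes higher and 12.9% lower. It gave 50 in the rise of either line, beside 22.5% of all genes called higher in shScram and 19.8% in shFto cells. In the first interaction it gave 7 (6 upward and 1 downward) and in the second 41. Of all genes, 1652 and 1258 were called there in either direction. The cause of these moves was not tested, except that fewer libraries leave fewer degrees of freedom. The replicate block gave 11 members in the second interaction and 40 between the lines at the differentiation stage, and moved no other count of members by over 1.5 times. Differences between replicates correlated weakly across groups (r from -0.29 to 0.17 over 15 pairs of groups), so no pairing by number was seen. A culture or batch shared by same-numbered libraries is not excluded by this. For the 99 gene values named, recomputed 2277 times over these settings, no direction turned, while 451 lost and 45 gained their call. Depth is unknown, and low TPM values carry the most counting error.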
